A study of Homo sapiens with 6 samples.

Results

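The run described here is a stretch of neighbouring genes at the end of the long arm of chromosome 18, from MALT1 to PARD6G, in HCT-8 cells. Its members are all genes between these ends in the RefSeq order of assembly GRCh38.p14 that had a named feature on the array. BCL2, PMAIP1 and PHLPP1 were left out, which gave 54 members of 14884 genes measured, 42 of them protein-coding, 11 lncRNA genes and 1 a transcribed pseudogene. PARD6G was the last measured gene of the chromosome, and 175 measured genes of chromosome 18 lay before MALT1. The stretch was proposed because its genes read higher in the arrays labelled TRIB3-shRNA. The differences between the groups in these genes are therefore a description. Limma calls among them are counted beside the shares of all genes and are no test of the run.

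Neighbouring genes share no pathway by position alone. What they share is a piece of DNA, so that a chromosome read gene by gene can show shifts that a list of pathways does not. The end of 18q is known in colon cancer as a region that many tumours lose. Its genes have unrelated roles, from the paracaspase MALT1, which cleaves and scaffolds proteins in NF-kappaB signalling, to the splicing factor TXNL4A and the polarity protein PARD6G.

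HCT-8 is a human colon cancer cell line. Its cells had received a plasmid for a short hairpin RNA against TRIB3, a pseudokinase of the Tribbles family, or for a control hairpin, and hygromycin had been applied from 24 hours after transfection for 14 days. The surviving cells of either kind were used as pools without cloning, and each group had 3 Affymetrix arrays. Whether a replicate was a culture, an array or a hairpin of its own is not said in the labels, so the SDs and p-values describe the spread between these arrays, which may be technical. In such pools a difference in every cell and a difference in a share of the cells cannot be told apart.

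Signals are RMA values in log2 units, and each difference is the mean of the arrays labelled TRIB3-shRNA minus that of the arrays labelled Control-shRNA. TRIB3 itself went against the labels. It read 8.43, 8.48 and 8.27 in arrays labelled TRIB3-shRNA and 7.37, 7.14 and 7.48 in control arrays, a rise of 1.07 (SE 0.14, limma adjusted p = 0.0041), and all directions given here follow the labels as deposited. Of 9 listed colon epithelial markers 7 were measured, all above the median of all genes (mean signals 7.29 to 11.04). The fibroblast markers LUM and DCN (2.86 and 2.16) and the endothelial marker PECAM1 (4.19) were dim, whereas CD68, listed for leukocytes, read 7.93. All arrays were of the HCT-8 line, and CD68 differed by 0.0049 between the groups (limma adjusted p = 0.986). The source of its signal was not tested. Over all genes limma called 9.64% at an adjusted p of 0.05, with 3.25% higher and 6.39% lower.

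Members were divided by signal. A gene was counted as expressed when its mean over the 6 arrays reached the median of all genes (5.67) and as dim below it, which gave 23 expressed and 31 dim members. Brightness also depends on a feature's probes, so the division separates bright from dim features rather than ranking transcripts. All 23 expressed members were protein-coding. Just inside the division lay MBP (5.76) and PARD6G (5.78), with differences of 0.31 and 0.99, and both reached it only through the arrays labelled TRIB3-shRNA (control means 5.60 and 5.29). Just outside it lay ZNF516 (5.67) and ZNF407 (5.55), with 0.35 and 0.23.

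The median difference of the 23 expressed members was 0.49, and also 0.49 in the 21 whose control mean also reached the median of all genes. It was -0.04 over all 7442 expressed genes, and 20 of the 23 lay above 0, where 46.2% of all expressed genes did. The dim members had a median of 0.15, against 0.09 over all dim genes, and 28 of 31 lay above 0, where 63.5% of all dim genes did. Together 48 of 54 members lay above 0, where 54.9% of all genes did. In 22 of the 54 members each array labelled TRIB3-shRNA read above each control array, where 16.4% of all genes did so, and in 0 members was the order reversed, where 15.6% of all genes had it so. By class these were 15 of 23 expressed members, with 19.1% of all expressed genes, and 7 of 31 dim members, with 13.7% of all dim genes. Of the 21 members expressed also by their control mean, 18 lay above 0 and 14 were higher without overlap. Limma's calls are given for members as counts only, since this contrast chose the run. Its adjusted p was under 0.05 and the direction higher for 12 of the 54 members, where 3.25% of all genes were called higher. Of these 10 were expressed, with 4.54% of all expressed genes called higher, and 2 dim, with 1.96% of all dim genes. PARD6G is among the 10. Limma called 0 members lower, and 0 at an unadjusted p under 0.05. The 12 became 7 without TRIB3-shRNA replicate 2, without Control-shRNA replicate 1 or without Control-shRNA replicate 2, where 0.786%, 0.605% and 0.537% of all genes were called higher. Because the same contrast chose the run, nothing is read from these counts.

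**Figure D1:**
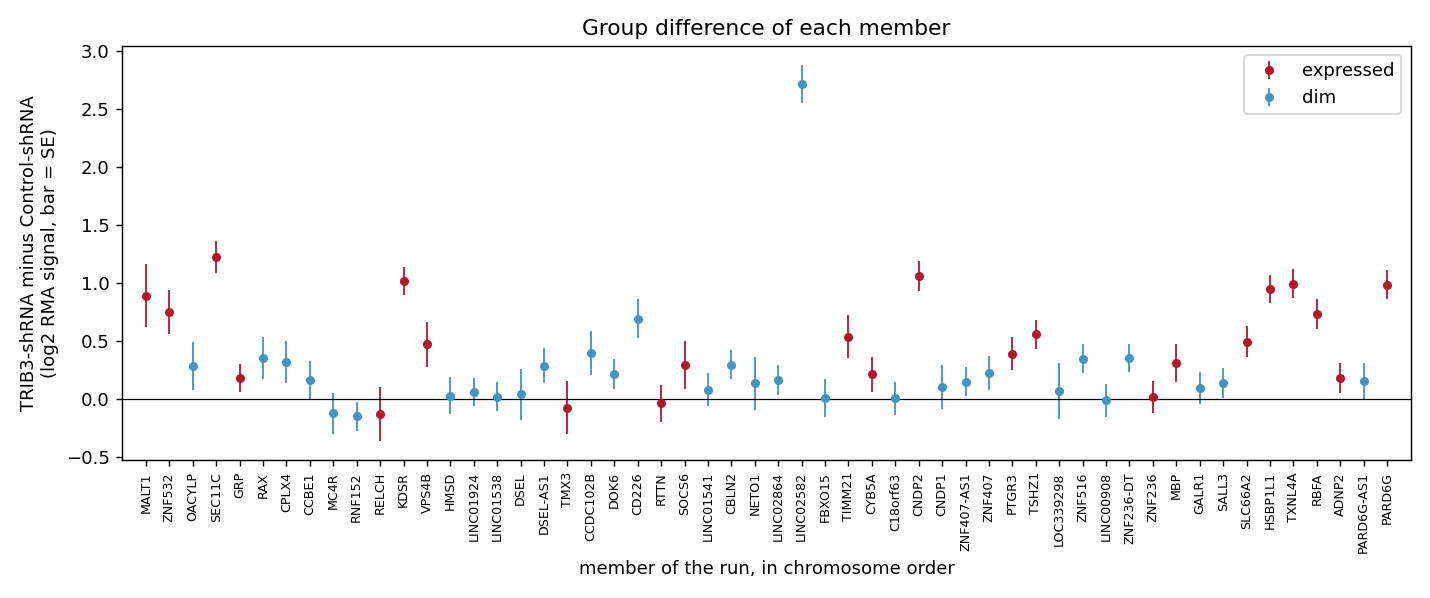
Difference between the groups (log2 RMA signal, y axis) for each of the 54 members in chromosome order (x axis), with red points for expressed and blue points for dim members and bars for the SE. Most expressed members sit above the dim ones around them, with a median of 0.49 against 0.15, and the dim LINC02582 stands alone at 2.72.

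The run opened with MALT1. It read 6.94, 7.11 and 7.73 in arrays labelled TRIB3-shRNA and 6.66, 6.65 and 5.80 in control arrays. The groups did not overlap, but the outermost value on each side came from the array numbered 3. The means were 7.26 ± 0.42 and 6.37 ± 0.49 (SD, n = 3 each), a difference of 0.89. With both arrays numbered 3 left out, an alternative chosen after seeing the data, the difference of MALT1 was 0.37. Next to it ZNF532, a zinc finger gene, read 6.72, 7.16 and 7.24 against 6.33, 6.54 and 5.99, a difference of 0.75 that was 0.51 without those arrays. The dim pseudogene OACYLP followed at 0.29, with overlapping groups.

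The genes just before the run did not read higher as a group. The 5 measured genes just before MALT1 were ALPK2 (-0.15), MIR122 (0.05), NARS1 (-0.40), FECH (-0.57) and ONECUT2 (-0.31). FECH, which encodes the last enzyme of heme synthesis, read 7.92, 7.95 and 8.23 in arrays labelled TRIB3-shRNA and 8.77, 8.54 and 8.52 in control arrays, so its groups were apart in the opposite direction. NARS1, the asparaginyl-tRNA synthetase, read 9.76, 9.77 and 10.35 against 10.58, 10.55 and 9.95 and overlapped. ONECUT2, a homeodomain factor, read 7.01, 7.01 and 6.99 against 7.52, 7.44 and 6.97, where the control array numbered 3 lay below all others. ALPK2 read 3.34, 3.64 and 3.24 against 3.61, 3.35 and 3.70. MIR122, a liver microRNA gene, read 1.76, 1.35 and 2.10 against 1.63, 1.46 and 1.97, near the bottom of the scale. Of the last 20 expressed genes before MALT1, 17 lay below 0, with a median of -0.32.

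Genes of secretion, membrane traffic and lipids were 7 members with a median difference of 0.47. SEC11C, a catalytic subunit of the signal peptidase that trims new secretory proteins, had the largest difference of the expressed members. It read 8.003, 8.006 and 8.166 in arrays labelled TRIB3-shRNA and 6.76, 7.03 and 6.71 in control arrays. The means were 8.06 ± 0.09 and 6.83 ± 0.18, a difference of 1.22 or 2.34-fold, several times the spread within either group. KDSR, which reduces ketodihydrosphingosine in the synthesis of sphingolipids, had a similarly small spread. Its arrays read 8.78, 8.70 and 8.84 against 7.82, 7.73 and 7.71, a difference of 1.02 or 2.03-fold. SLC66A2, a transporter-like membrane protein, read 7.53, 7.35 and 7.35 against 6.79, 6.89 and 7.06, a difference of 0.49 with no overlap. VPS4B, the ATPase that takes apart ESCRT-III filaments, differed by 0.47 with overlapping groups.

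Other members of that group were near 0. The sign of RELCH turned with the span trend removed and without TRIB3-shRNA replicate 2, and that of TMX3 with centring on the 75th percentile, with quantile normalization, without Control-shRNA replicate 2 and without TRIB3-shRNA replicate 1. RELCH, a protein of recycling endosomes, read 6.31, 6.13 and 6.93 in arrays labelled TRIB3-shRNA and 6.76, 6.78 and 6.21 in control arrays, a difference of -0.13. TMX3, a disulfide isomerase of the endoplasmic reticulum, read 6.20, 6.48 and 7.09 against 6.75, 6.84 and 6.40, a difference of -0.07. In each gene the array numbered 3 was the highest of those labelled TRIB3-shRNA and the lowest of the controls, against the direction of the other arrays. Without the arrays numbered 3 the differences were -0.55 and -0.45. The dim gene DSEL, of dermatan sulfate synthesis, differed by 0.04.

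Mitochondrial and metabolic members were 6 in number, all above 0, with a median of 0.46. CNDP2, a cytosolic dipeptidase, read 8.19, 8.01 and 7.98 in arrays labelled TRIB3-shRNA and 6.93, 6.93 and 7.12 in control arrays, a difference of 1.06 or 2.09-fold. Its neighbour and relative CNDP1, which encodes a serum carnosinase, was dim at 3.96, 4.49 and 3.92 against 3.79, 4.24 and 4.05, a difference of 0.10 with overlap. RBFA, a maturation factor of the mitochondrial ribosome, read 7.81, 7.80 and 7.55 against 7.04, 6.96 and 6.95, a difference of 0.74. TIMM21, a subunit of the inner membrane import complex, read 6.77, 6.93 and 7.16 against 6.72, 6.46 and 6.07. Its groups were apart by a narrow margin and its difference of 0.54 was 0.26 without the arrays numbered 3. PTGR3 had 2 features that differ in brightness (7.34 and 4.16 on average), and both gave a difference of 0.39. CYB5A, cytochrome b5, differed by 0.22 with overlapping groups.

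In the group of transcription, splicing, ubiquitin and centriole genes, 2 neighbours near the telomere stood out. TXNL4A, a component of the U5 snRNP of the spliceosome, read 9.59, 9.38 and 9.42 in arrays labelled TRIB3-shRNA and 8.46, 8.51 and 8.43 in control arrays, a difference of 0.995 or 1.99-fold. HSBP1L1, a small relative of a heat shock factor binding protein, read 9.50, 9.36 and 9.28 against 8.39, 8.45 and 8.46, a difference of 0.95. The control arrays of these genes had SDs of 0.04 and 0.03. RTTN, a protein of centriole assembly, read 5.86, 6.07 and 6.36 against 6.27, 6.18 and 5.95, a difference of -0.04 with overlap whose sign turned with centring and with quantile normalization. Without both arrays numbered 3 the difference of RTTN was -0.26. The dim CCDC102B read 3.99, 4.53 and 3.80 against 3.63, 3.66 and 3.83, a difference of 0.40 that rested mainly on the array labelled TRIB3-shRNA numbered 2. The dim FBXO15, an F-box protein, differed by 0.01.

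Promoters of 5 expressed members are shown. SEC11C and CNDP2 had the 2 largest differences among expressed members, TXNL4A and RBFA lie back to back and both read higher, and ZNF236 (0.01) is an expressed member whose group means were nearly equal. Each sequence is the window around the most upstream start listed by RefSeq for GRCh38.p14, 300 bases long, 5′ to 3′ on the gene's own strand. Capitals mark CCAAT, or ATTGG on the other strand, and TATAAA, or TTTATA. The windows are SEC11C at chr18:59139634-59139933 (plus strand), CNDP2 at chr18:74496113-74496412 (plus), ZNF236 at chr18:76822307-76822606 (plus), TXNL4A at chr18:80033887-80034186 (minus) and RBFA at chr18:80034184-80034483 (plus).
SEC11C: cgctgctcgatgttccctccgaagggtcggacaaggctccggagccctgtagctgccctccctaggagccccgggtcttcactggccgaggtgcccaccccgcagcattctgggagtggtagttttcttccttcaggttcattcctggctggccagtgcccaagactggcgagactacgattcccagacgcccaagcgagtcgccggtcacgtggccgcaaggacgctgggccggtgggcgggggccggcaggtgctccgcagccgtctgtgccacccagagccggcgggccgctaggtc
CNDP2: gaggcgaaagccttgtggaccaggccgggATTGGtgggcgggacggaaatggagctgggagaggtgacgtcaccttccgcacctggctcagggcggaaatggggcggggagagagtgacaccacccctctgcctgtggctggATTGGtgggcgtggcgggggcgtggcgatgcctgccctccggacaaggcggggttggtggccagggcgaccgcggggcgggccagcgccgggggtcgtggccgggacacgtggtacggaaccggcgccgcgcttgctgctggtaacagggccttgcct
ZNF236: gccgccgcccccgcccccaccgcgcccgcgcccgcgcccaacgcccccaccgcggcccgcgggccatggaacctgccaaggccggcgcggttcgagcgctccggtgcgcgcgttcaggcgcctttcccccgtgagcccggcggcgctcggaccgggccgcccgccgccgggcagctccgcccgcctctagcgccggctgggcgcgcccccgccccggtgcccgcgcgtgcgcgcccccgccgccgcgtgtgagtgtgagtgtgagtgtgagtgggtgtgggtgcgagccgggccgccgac
TXNL4A: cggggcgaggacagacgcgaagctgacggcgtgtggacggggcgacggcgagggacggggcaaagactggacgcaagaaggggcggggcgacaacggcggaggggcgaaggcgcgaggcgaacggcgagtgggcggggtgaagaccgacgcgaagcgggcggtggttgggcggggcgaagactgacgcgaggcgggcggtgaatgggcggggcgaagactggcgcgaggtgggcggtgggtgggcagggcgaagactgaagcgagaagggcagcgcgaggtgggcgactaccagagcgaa
RBFA: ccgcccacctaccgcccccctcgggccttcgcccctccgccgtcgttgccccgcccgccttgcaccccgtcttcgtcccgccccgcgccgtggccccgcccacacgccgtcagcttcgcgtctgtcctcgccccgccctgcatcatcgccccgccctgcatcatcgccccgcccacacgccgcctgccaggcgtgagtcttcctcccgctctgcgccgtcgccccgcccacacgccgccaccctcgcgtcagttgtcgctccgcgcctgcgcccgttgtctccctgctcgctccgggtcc

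Of these windows only that of CNDP2 held a marked motif, with 2 matches to CCAAT. Windows were listed for 43 of the 54 members. Of those, 9 held CCAAT and 2 held TATAAA on either strand, where 34.6% and 11.5% of all 35116 listed windows did. The CG dinucleotide occurred a median of 32.5 times in the windows of 20 expressed members, 25 times in those of 23 dim members and 14 times over all windows, which include several starts of some genes. A match or its absence describes these letters alone.

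Back-to-back neighbours did not all read alike. The windows of TXNL4A and RBFA share 3 bases, and both genes were higher, by 0.995 and 0.74. The windows of ZNF236 and its divergent transcript ZNF236-DT share 239 bases, yet ZNF236 differed by 0.01 and ZNF236-DT by 0.36. ZNF236-DT, a dim lncRNA gene, read 5.80, 5.73 and 5.58 against 5.38, 5.38 and 5.29, so its groups did not overlap, whereas ZNF236 read 6.41, 6.63 and 6.81 against 6.60, 6.62 and 6.58. TMX3 (-0.07) and CCDC102B (0.40) share 207 bases of their windows, and the windows of FBXO15 (0.01) and TIMM21 (0.54) lie 188 bases apart. The pair of ZNF407 and ZNF407-AS1 (0.23 and 0.15) was dim. DSEL and DSEL-AS1 (0.04 and 0.29) were dim as well but are not back to back. The window of DSEL, on the minus strand, has the higher coordinates, so each gene is read towards the start of the other. How far the features tell the strands apart was not tested.

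Zinc finger and homeodomain factors were 8 members, all above 0, with a median of 0.29. TSHZ1, a teashirt factor, read 6.44, 6.67 and 6.63 in arrays labelled TRIB3-shRNA and 6.03, 5.97 and 6.06 in control arrays, a difference of 0.56. ZNF516 read 5.85, 5.74 and 5.95 against 5.53, 5.55 and 5.41, a difference of 0.35. The groups of both were apart. RAX, a homeodomain factor of the developing eye, was dim and read 5.93, 5.66 and 5.25 against 5.18, 5.39 and 5.21, with an overlap and a difference of 0.35. ADNP2 differed by 0.18 and did not overlap, while ZNF407 (0.23) and SALL3 (0.14) did.

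Adaptors and signalling proteins were 5 members with a median of 0.29, MALT1 at one end and PARD6G at the other. PARD6G, an adaptor of the PAR polarity complex, read 6.19, 6.34 and 6.29 in arrays labelled TRIB3-shRNA and 5.38, 5.19 and 5.29 in control arrays. The means were 6.28 ± 0.08 and 5.29 ± 0.09, a difference of 0.99 or 1.98-fold, close to that of TXNL4A nearby, and the groups did not overlap. Its antisense RNA PARD6G-AS1 was dim, at 5.01, 4.54 and 4.90 against 4.73, 4.75 and 4.52, a difference of 0.15. SOCS6, a suppressor of cytokine signalling, differed by 0.29 with overlap. The dim DOK6, a docking protein of receptor kinases, differed by 0.22 without overlap, and the dim RNF152, a lysosomal ubiquitin ligase, by -0.15.

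Ligands, receptors and synaptic proteins were 8 members, 7 of them dim. The largest difference was that of CD226, an adhesion receptor of NK and T cells. It read 3.65, 4.13 and 3.77 in arrays labelled TRIB3-shRNA and 3.40, 2.98 and 3.08 in control arrays, a difference of 0.70 without overlap. All of its values lay below the lower quartile of each array (4.26 to 4.36). CBLN2, a synaptic organiser, differed by 0.30 and GRP, gastrin-releasing peptide and the only expressed gene of the group, by 0.18, both without overlap. The exocytosis regulator CPLX4 (0.32), the lymphatic growth factor regulator CCBE1 (0.16), the kainate receptor partner NETO1 (0.13) and the galanin receptor GALR1 (0.10) overlapped, as did the melanocortin receptor MC4R (-0.12).

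LINC02582, a long non-coding RNA gene, was the exception among dim members. It read 5.52, 5.62 and 5.99 in arrays labelled TRIB3-shRNA and 3.19, 3.00 and 2.80 in control arrays, so the former lay near the median of all genes and the latter below the lower quartile. The difference was 2.72 on the log2 scale, and how far it depends on the background correction at such low signals was not tested. Its measured neighbours were at 0.17 (LINC02864) and 0.01 (FBXO15). The other lncRNA genes and OACYLP ran from -0.01 (LINC00908) to 0.36 (ZNF236-DT). Among them were LINC01541 (0.08), LINC01924 (0.06), LINC01538 (0.02) and LOC339298, whose 2 features gave 0.07 and -0.02. The remaining members were MBP, which encodes myelin basic protein (0.31), C18orf63 (0.01) and HMSD, a serpin-like gene (0.03), all with overlapping groups.

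**Figure D2:**
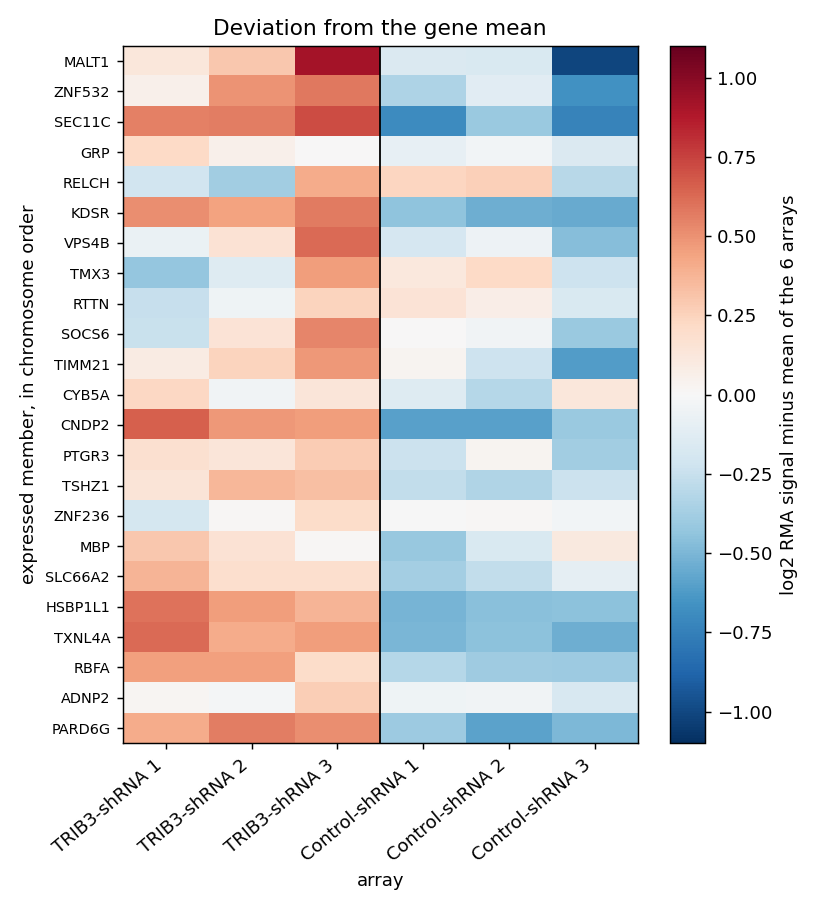
Signal of the 23 expressed members (rows, in chromosome order) on each of the 6 arrays (columns) as the deviation from the gene's mean (log2, colour scale). SEC11C, KDSR, CNDP2, HSBP1L1, TXNL4A, RBFA and PARD6G are above their mean on all arrays labelled TRIB3-shRNA and below it on all controls. RELCH, TMX3 and RTTN change sign between the arrays numbered 3 and the others.

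The members differed in how much the arrays numbered 3 decided. The median deviation of expressed members from their gene means was 0.18, 0.18 and 0.41 in arrays labelled TRIB3-shRNA and -0.24, -0.17 and -0.40 in control arrays. Taken by replicate number, the median differences were 0.39, 0.45 and 0.72, and 18, 20 and 22 of the 23 genes lay above 0. For the dim members the medians by number were 0.28, 0.25 and 0.07. The numbers do not pair the arrays, so these are values of array pairs and not of matched cultures. KDSR (0.97), TXNL4A (0.998), PARD6G (0.98) and TSHZ1 (0.55) kept their size without the arrays numbered 3. Over all expressed members the median was then 0.37, with 18 of 23 above 0.

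**Figure D3:**
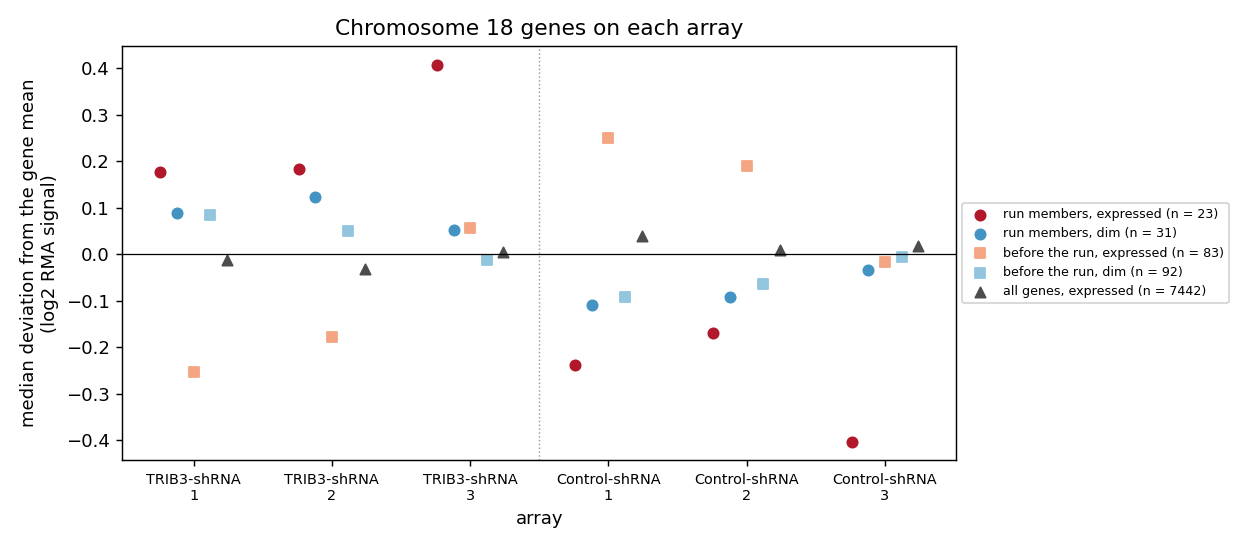
Median deviation from the gene mean (log2 RMA signal, y axis) on each array (x axis) for expressed and dim genes of the run, of chromosome 18 before MALT1 and, as triangles, for all expressed genes. Expressed members of the run are above 0 on the 3 arrays labelled TRIB3-shRNA and below it on the controls, and expressed genes before the run lie the other way on the arrays numbered 1 and 2 and near 0 on those numbered 3.

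The rest of the chromosome read the other way where it was expressed. The 83 expressed genes before MALT1 had a median of -0.26, with 58 below 0, and each array labelled TRIB3-shRNA lay below each control for 28 of them, where 23.4% of all expressed genes did. The 92 dim genes before MALT1 had a median of 0.12, close to the 0.15 of the dim members. By replicate number the median differences of the expressed genes before MALT1 were -0.50, -0.36 and 0.07, so that the arrays numbered 3 showed the least there and the most in the run. The run was bounded on this contrast, so the step at MALT1 is a description too.

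**Figure D4:**
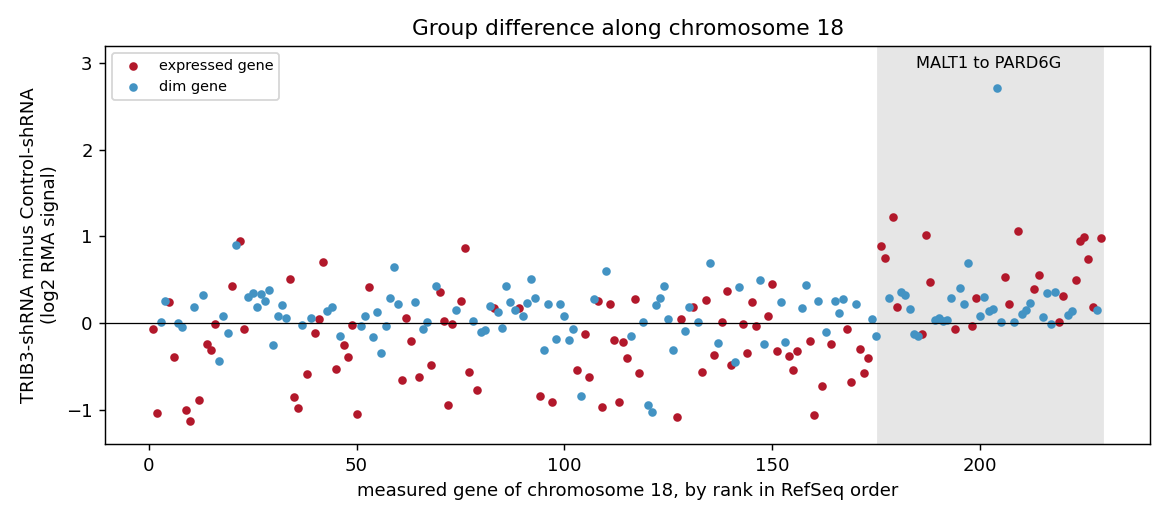
Difference between the groups (log2 RMA signal, y axis) for the measured genes of chromosome 18 by rank in gene order (x axis), red for expressed and blue for dim genes, with the 54 members shaded. BCL2, PMAIP1 and PHLPP1 are not drawn. Expressed genes lie mostly below 0 before MALT1 (median -0.26) and mostly above 0 from it on (median 0.49), while dim genes have medians of 0.12 and 0.15 on either side.

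Along the run the expressed members were divided into a proximal stretch up to VPS4B and a distal one from TIMM21 on. No rule set these bounds in advance, so the stretches are a description. The 7 expressed members from MALT1 to VPS4B had a median of 0.75 and the 13 from TIMM21 to PARD6G one of 0.54, all 13 above 0. Among these 13, MBP and PARD6G counted as expressed only through the arrays labelled TRIB3-shRNA, so their sign follows from the division. Between the proximal and the distal stretch lie 17 measured genes with a median of 0.13. Of these only TMX3 (-0.07), RTTN (-0.04) and SOCS6 (0.29) were expressed, so that median is mostly one of dim genes, unlike those of the stretches. Across the 54 members the Spearman correlation of signal and difference was 0.53, against -0.38 over the 175 genes before the run and -0.18 over all genes. These correlations run across genes that share the same 6 arrays and are descriptions.

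**Figure D5:**
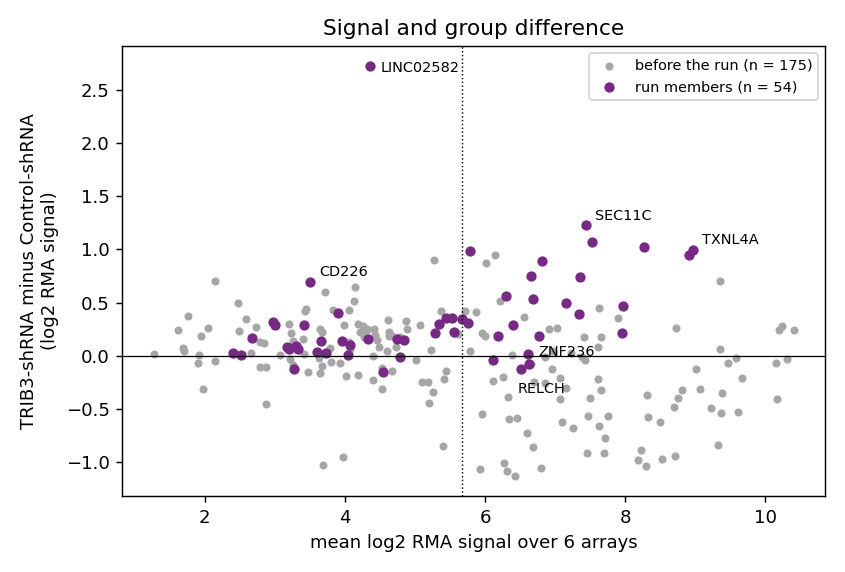
Mean signal over the 6 arrays (log2 RMA signal, x axis) against the difference between the groups (log2 RMA signal, y axis). Members of the run are in purple and the chromosome 18 genes before MALT1 in grey, with the median of all genes as a dotted line. To the right of the line members of the run lie mostly above the grey points, with a median of 0.49 against -0.26, and to the left LINC02582 is the highest point.

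BCL2, PMAIP1 and PHLPP1, which lie inside the run and are not counted in it, read higher by 1.54, 0.75 and 0.78, with no overlap between the groups. With them the median of the run was 0.29 in place of 0.22.

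Genes elsewhere in the genome that work with genes of the stretch or are their relatives were tested, since the run was not chosen on them. These genes were listed with earlier results of the same arrays known, which limits the tests. Of 61 such genes listed, 34 were measured; 1 rose, 3 fell and 30 did not pass limma's test, with a median of -0.08, where 9.64% of all genes were called. Of the 34, 29 were expressed, and so were all of the called ones. SPCS2 and SOCS5 reached the division (5.67) only through the control arrays, with means of 5.45 and 5.56 in arrays labelled TRIB3-shRNA. Among expressed genes their direction therefore follows from the division. Over all 7442 expressed genes limma called 338 higher and 747 lower. The 4 calls among the 34 lay near the share over all genes, so nothing is read from their number. By listing, 31 of the 34 were for members (1 rose, 2 fell), and MCFD2, RPAP2 and TMEM30A for genes of the stretch without a named feature. SPCS2, the partner of SEC11C in the signal peptidase, read 5.41, 5.64 and 5.31 in arrays labelled TRIB3-shRNA and 6.18, 6.22 and 5.99 in control arrays and fell by 0.68 (SE 0.14, adjusted p = 0.0221). The expressed member SEC11C read the other way. The paralogous catalytic subunit SEC11A differed by -0.19 (adjusted p = 0.326), SPCS1 by -0.06 and SPCS3 by -0.16. TIMM44, which works with TIMM21 in mitochondrial import, rose by 0.64 (SE 0.14, adjusted p = 0.0281), with 9.12, 9.09 and 8.88 against 8.26, 8.33 and 8.59. The other import genes listed did not pass: TIMM23 (0.30, adjusted p = 0.132), TIMM50 (0.25, adjusted p = 0.248) and TIMM17A (0.09, adjusted p = 0.718). SOCS5, a relative of SOCS6, read 5.46, 5.26 and 5.95 against 6.40, 6.49 and 6.12 and fell by 0.78 (SE 0.19, adjusted p = 0.0396). The relatives SOCS4 (-0.78, adjusted p = 0.0675) and SOCS7 (0.21, adjusted p = 0.268) did not pass. RPAP2, like CTDP1 of the run (not analysed here) a phosphatase of the RNA polymerase II tail, read 6.75, 6.52 and 7.28 against 7.91, 7.99 and 7.69 and fell by 1.01 (SE 0.20, adjusted p = 0.0189).

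These calls depended on single arrays, as did those over all genes. Without Control-shRNA replicate 1, without Control-shRNA replicate 2 or without TRIB3-shRNA replicate 1, limma called 0 of the 34 (6, 6 and 8 at an unadjusted p under 0.05), and without TRIB3-shRNA replicate 2 it called 1, SPCS2. Over all genes the 9.64% called became 1.75%, 1.34%, 3.41% and 2.5% in the same order. The differences stayed near their size in these fits, from -0.99 to -0.84 for RPAP2 and from 0.57 to 0.61 for TIMM44. The measured partners and relatives of TXNL4A and PARD6G were not called. The U5 snRNP proteins PRPF8 (-0.10, adjusted p = 0.636), SNRNP200 (-0.10, adjusted p = 0.651), EFTUD2 (0.10, adjusted p = 0.634) and PRPF6 (0.35, adjusted p = 0.157) did not pass the test beside TXNL4A at 0.995. The relatives and partner of PARD6G likewise did not pass, with PARD6A at -0.10 (adjusted p = 0.716), PARD6B at -0.38 (adjusted p = 0.16) and PARD3 at -0.33 (adjusted p = 0.127).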

How the data were processed

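Total RNA of HCT-8 cells had been measured on 6 single-colour Affymetrix arrays, with 5.5 µg of cDNA labelled per array per the labels' protocols. The deposited values, on a log2 scale read from their range (0.39 to 13.82), had been made by the authors by RMA, with Affymetrix Expression Console as the software, version 1.4.1 per the submitters' processing notes. This method corrects background, normalizes by quantiles and summarises probes; scanner files were not used here, so these steps could not be varied. For the array annotation, the build was not given in the sources used here.

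Of 53617 features, 16098 had 1 gene symbol, 0 several and 37519 none. All 16098 matched RefSeq gene identifiers (GRCh38.p14), which gave gene order, biotype and span. The brightest feature per gene was kept, leaving 14884 genes. Promoter sequences are from RefSeq. Genes without a named feature, such as the clade B serpin genes, the cadherins CDH7, CDH19 and CDH20, LMAN1 and NFATC1, were not analysed here.

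Groups came from sample titles. Limma 3.58.1 (R 4.3.3; a linear model with 1 term, the group, and moderated variances; two-sided; Benjamini-Hochberg over all genes) was run on the deposited values and tested on simulated data; counts and medians used Python 3.11.15. The members and lists were chosen with earlier results of these data known. Every member is named with its difference, and array values are given for the ends, the 12 expressed and 6 dim members with the largest absolute difference, expressed members below 0, the 5 genes before MALT1, called partners and TRIB3; CNDP1, PARD6G-AS1 and ZNF236 were added after their values were seen. Alternatives were quantile normalization, centring, the mean of a gene's features, filters on dim genes, the span trend removed (lowess, 0.3), an intensity trend with robust fitting, array weights, the replicate block, leaving out arrays, another signal division and other memberships. At most 0.127% of values were identical between any 2 arrays.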

Additional observations from a re-analysis of the deposited data

How the results depend on the processing

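The median difference of expressed members (0.49) stayed above 0 under all 16 alternatives run and ran from 0.43 to 0.63 with 1 array left out. With the division at the lower quartile it was 0.35. With only members whose control mean also reached the median of all genes, an alternative chosen after seeing the data, it was 0.49. All alternatives reuse arrays of the contrast that chose the run, so a median above 0 is no test of it. The median of all members (0.22) was 0.33 and 0.28 with arrays centred on the 75th percentile and the median, 0.25 with quantile normalization, 0.31 with the span trend removed, 0.35 for genes above the lower quartile, 0.30 for protein-coding members, 0.29 with BCL2, PMAIP1 and PHLPP1, and 0.21 to 0.29 without 1 array. That of dim members (0.15) was 0.26 and 0.21 with the same centrings, 0.0705 with quantile normalization, 0.20 with the span trend removed, 0.22 for genes above the lower quartile and 0.10 with the lower division. The median of all genes was 0.04 as deposited and 0.14 after centring on the 75th percentile. The genes before the run had a median of -0.01, which became 0.094 and 0.0445 with these centrings, -0.14 for genes above the lower quartile and -0.0466 with quantile normalization. Members without overlap numbered 22, and 35 without both arrays numbered 3, where fewer arrays make overlap rarer and the share of all genes rose from 16.4% to 36.0%. Limma then called 12 members higher and 1 lower, where 8.09% and 14.7% of all genes were called. With the replicate block it called 7 members, all higher, where 0.82% of all genes were called higher. These calls too are counts and no test of the run.

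The count of all genes called (1435) was 199 to 2696 without 1 array, 402 with the replicate block, 4099 with array weights and 3392 without both arrays numbered 3. Higher calls were 33.7% of these calls, 41.7% with quantile normalization, 44.6% with median centring and 50.8% with centring on the 75th percentile. Called partners (4) numbered 0 to 5 without 1 array, 0 with the replicate block (limma, 6 at an unadjusted p under 0.05), 7 with intensity trend and robust fitting, 11 with array weights and 10 without both arrays numbered 3. With the block the adjusted p was 0.053 for RPAP2, 0.0612 for SPCS2, 0.0944 for TIMM44 and 0.0955 for SOCS5. The numbers do not pair the arrays: same-numbered deviations correlated at -0.20, -0.09 and -0.43. The causes were not tested.

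Small differences changed sign. RTTN (-0.04) was 0.0675 and 0.0179 with the centrings, 0.0728 with quantile normalization, 0.0961 with the span trend removed and -0.17 to 0.0798 without 1 array. TMX3 (-0.07) was 0.0312 with centring on the 75th percentile, 0.0446 with quantile normalization and -0.32 to 0.12 without 1 array. RELCH (-0.13) was 0.0164 with the span trend removed and -0.36 to 0.0341 without 1 array. MIR122 (0.05) was -0.0943 with quantile normalization, -0.0597 with the span trend removed and -0.13 to 0.24 without 1 array. ALPK2 (-0.15) was 0.0067 without both arrays numbered 3. Precision is limited by the number of arrays, and signal over background was not analysed here.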
